A study of Mus musculus with 12 samples.

Results

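The genes described here were the 4 adult haemoglobin chain genes Hba-a1, Hba-a2, Hbb-bs and Hbb-bt, the haem synthesis gene Alas2, and the 5 neutrophil granule genes Ngp, Camp, Ltf, S100a8 and S100a9. They were chosen by name, as 10 of the 18992 genes listed in the 3 expression tables, and all 10 were listed in each table. The study used female NZB/W F1 mice, the hybrid of the NZB and NZW strains in which a lupus-like kidney disease arises with age, and sequenced the RNA of single CD8+ T cells gated as PD-1+CD44+. The 3 groups were spleen of mice aged 12 weeks (12W spleen), spleen of mice aged 28 weeks (28W spleen) and kidney of mice aged 28 weeks (28W kidney), the kidneys having been digested with collagenase and passed over Percoll. No group carried a transgene or treatment in the labels. The 28W spleen samples also carry an age field of 12 weeks, against their titles, and the titles were used.

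Red cells carry oxygen on haemoglobin, a tetramer of alpha and beta chains that each hold a haem group, and their precursors fill with globin mRNA as they mature. ALAS2 is the erythroid form of the first enzyme of haem synthesis. Neutrophils load their secondary granules with antimicrobial proteins such as neutrophilic granule protein (Ngp), cathelicidin (Camp) and lactoferrin (Ltf) while still in the bone marrow, and hold the calcium-binding pair S100A8 and S100A9 in their cytosol. The sort was gated for T cells, so the description asks in which of the sequenced clusters transcripts of these lineages lay.

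Expression was given as a mean per gene in each of 33 clusters that the authors had made within the libraries, with 10 for 12W spleen, 11 for 28W spleen and 12 for 28W kidney. Cluster numbers are not matched between libraries, and the members themselves were among the genes clustered, so their spread over clusters is a description. Each group had 4 sample entries, numbered in their titles as sequencing lanes often are and possibly lanes of 1 library rather than separate samples, and their tables hold 1 pooled set of 6481 to 7135 cells and 29937384 to 34742303 unique molecular identifiers (UMIs, each tagging 1 captured transcript), with no map from cells to samples. It is treated as 1 library. With 1 library a group, differences between groups carry no test. Levels are UMIs per 1000000 UMIs (CPM) of the library or cluster named, and ranges in parentheses are 95% exact intervals that cover counting error only. Because a transcript counts once whatever its length, genes were compared on the same scale. In such sums, fewer cells that hold a transcript and less of it per cell cannot be told apart. The libraries shared 52, 56 and 66 cell barcodes in pairs. The sorted identity was visible over the whole libraries, where the 7 T cell genes Cd3d, Cd3e, Cd3g, Cd8a, Cd8b1, Trac and Trbc2 summed to 5492, 5101 and 6414 CPM in the same order as above.

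The alpha genes lie on chromosome 11 of GRCm38, Hba-a1 (ENSMUSG00000069919) at chr11:32283511-32284465 and Hba-a2 (ENSMUSG00000069917) at chr11:32296489-32297298, both on the plus strand. The beta genes lie on the minus strand of chromosome 7, Hbb-bs (ENSMUSG00000052305) at chr7:103826534-103828096 and Hbb-bt (ENSMUSG00000073940) at chr7:103812524-103813996. Each of the 4 has 3 exons. Within a pair the coding sequences differed at 1 base of 429 for alpha and 1 of 444 for beta, which matters for how reads can be assigned to a copy. The stretches around that base, all in exon 3, are shown with the differing base in capitals. They run from coding base 366 to 396 for alpha and from 402 to 432 for beta.
Hba-a1: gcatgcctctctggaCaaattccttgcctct
Hba-a2: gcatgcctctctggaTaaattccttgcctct
Hbb-bs: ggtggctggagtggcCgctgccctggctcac
Hbb-bt: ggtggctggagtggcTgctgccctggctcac
Counted from 1 at the start codon and with the first-named gene's base first, the differences were C381T between Hba-a1 and Hba-a2 and C417T between Hbb-bs and Hbb-bt. The stretches lie at chr11:32284328-32284358, chr11:32297145-32297175, chr7:103826677-103826707 and chr7:103812668-103812698 in the order shown. The first 380 coding bases of the alpha pair were identical, and so were the 35 bases before the start codon that both annotated transcripts hold. In the beta pair the first 416 coding bases were identical, but 9 of the 53 bases before the start codon differed. The kit reads the 5′ end of transcripts, so the split between Hba-a1 and Hba-a2 is uncertain, and that between Hbb-bs and Hbb-bt rests mostly on the untranslated bases. These sequences are of the reference genome, and the alleles that NZB/W F1 mice carry were not examined, so both splits have this further limit.

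Almost all UMIs of the 10 genes lay in 5 of the 33 clusters. In 12W spleen the highest cluster of every member was cluster 3, and in 28W spleen it was cluster 8. In 28W kidney the 2 families were apart, with the haemoglobin genes in clusters 2 and 11 and the granule genes in cluster 12. These 5 clusters held every level above 1000 CPM, whether of the 4 globin genes summed or of the 5 granule genes summed.

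**Figure D1:**
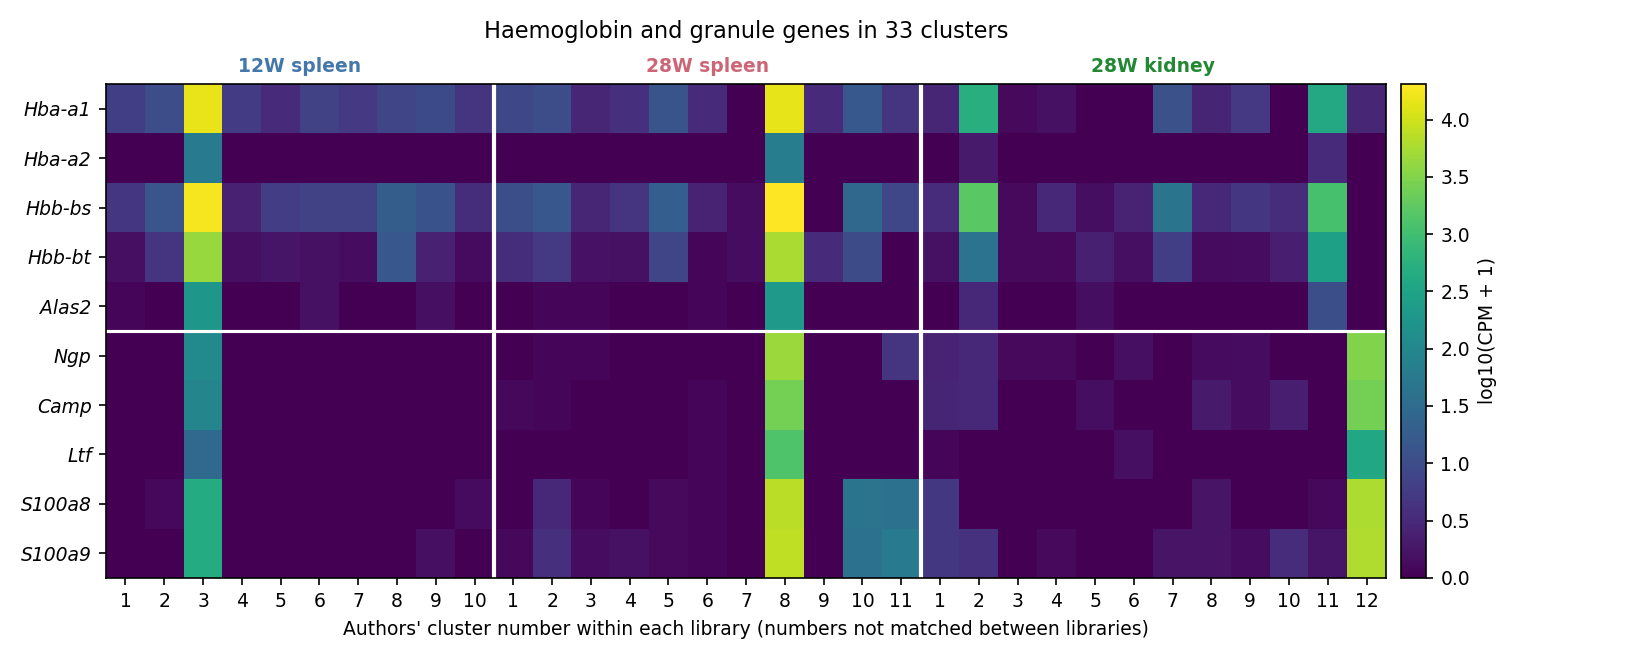
Level of the 10 genes (rows) in the 33 clusters (columns, grouped by library) as log10(CPM + 1), with haemoglobin genes and Alas2 above the white line and granule genes below it. Both families are brightest in 12W spleen cluster 3 and 28W spleen cluster 8, while in 28W kidney the haemoglobin genes stand out in clusters 2 and 11 and the granule genes in cluster 12.

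Such concentration was uncommon among genes. Of 10405 genes with at least 50 UMIs in 12W spleen, 0.625% had at least 90% of them in 1 cluster, and 10 of 10 members did. In 28W spleen the share was 0.922% of 10299 genes, against 9 of 9 members counted, as Hba-a2 had only 24 UMIs. In 28W kidney 2.17% of 10923 genes passed, against 6 of 8 members counted. Hba-a1 and Hbb-bs were the exceptions there, because clusters 2 and 11 shared their UMIs, and Hba-a2 and Alas2 were below the minimum.

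In 12W spleen, cluster 3 held 1061 cells, 15.4% of the library, but 6.49% of its UMIs. Its alpha chain genes were at 14709 CPM for Hba-a1 and 57.7 CPM for Hba-a2. The beta chain genes were at 17754 CPM for Hbb-bs and 4449 CPM for Hbb-bt, so the 4 globin genes made up 36969 of every 1000000 UMIs in that cluster. No other cluster of 12W spleen passed 38.6 CPM for this sum. Alas2 was at 189 CPM (171 to 207) in cluster 3, with 425 of its 428 UMIs there. The granule genes were lower, at 456 CPM each for S100a8 and S100a9, 114 CPM for Ngp, 88.8 CPM for Camp and 28.8 CPM for Ltf. Every UMI of Ngp, Camp and Ltf in that library lay in cluster 3.

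In 28W spleen, cluster 8 held 376 cells, 5.80% of the library, and 1.20% of its UMIs. Globin genes reached a sum of 40615 CPM there (39980 to 41258), with Hbb-bs at 20408, Hba-a1 at 14360, Hbb-bt at 5785 and Hba-a2 at 62.6 CPM. Alas2 was at 209 CPM (165 to 260), close to its level in cluster 3 of 12W spleen. The granule genes stood far above their 12W level, with S100a9 at 8017, S100a8 at 7271, Ngp at 4588, Camp at 2521 and Ltf at 1311 CPM. Their sum was 23708 CPM in cluster 8 against 1143 CPM in cluster 3 of 12W spleen.

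In 28W kidney, cluster 11 held 7364 of the 9613 globin UMIs among 359 cells. That cluster was also the highest for 6 cell cycle genes, which summed to 9116 CPM there against 581 CPM in the other clusters. Hbb-bs was at 1116 CPM in cluster 11, Hba-a1 at 398, Hbb-bt at 282 and Alas2 at 9.77. Cluster 2, with 806 cells, had higher levels of Hbb-bs, at 1583 CPM, and Hba-a1, at 518 CPM, but lower ones of Hbb-bt, at 42.4 CPM, and Alas2, at 2.07 CPM from 2 UMIs. Both clusters ranked the 4 genes alike, but which cluster was higher differed by gene. Cluster 12 held 184 cells and 18915 of the 19005 granule UMIs of the kidney, with S100a9 at 6176, S100a8 at 5942, Ngp at 3166, Camp at 2570 and Ltf at 362 CPM. It had 2 globin UMIs, both of Hba-a1, and none of Alas2.

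**Figure D2:**
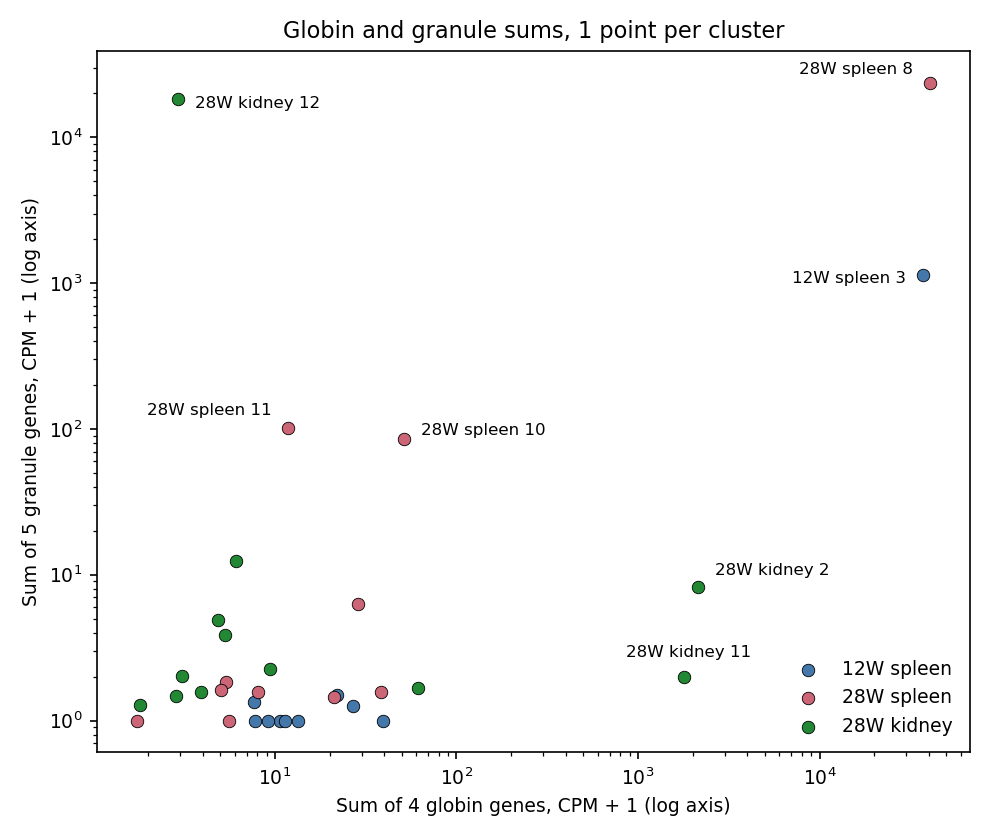
Sum of the 4 globin genes (x axis) against the sum of the 5 granule genes (y axis) in each of the 33 clusters, both as CPM + 1 on log axes and coloured by library. Spleen clusters 3 (12W) and 8 (28W) are high for both sums, whereas kidney cluster 12 is high for granule genes with 1.93 CPM of globin, and kidney clusters 2 and 11 are high for globin with 7.24 and 0.977 CPM of granule genes.

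The partner genes of a family were compared within clusters, where the library total plays no part. Alpha genes made up 39.9% (39.6 to 40.3) of globin UMIs in cluster 3 of 12W spleen and 35.5% (34.8 to 36.3) in cluster 8 of 28W spleen. In the kidney they made up 22.3% (21.3 to 23.3) in cluster 11 and 24.2% (22.4 to 26.1) in cluster 2. The spleen and kidney intervals did not overlap, so beta chains took a larger part of globin UMIs in kidney beyond counting error. Hba-a2 contributed under 1% of alpha UMIs in each library, from 0.389% in 12W spleen to 0.503% (0.251 to 0.897) in 28W kidney, with the uncertain assignment given above.

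Between the beta genes, Hbb-bt took 20.04% (19.7 to 20.4) of the pair in cluster 3 of 12W spleen, 22.1% (21.3 to 22.9) in cluster 8 of 28W spleen and 20.1% (19.1 to 21.2) in kidney cluster 11. In kidney cluster 2 it took 2.61% (1.88 to 3.52), 41 of 1573 UMIs. That share lay below the other 3 by more than their intervals. The UMIs of the remaining clusters gave 15.9% (11.3 to 21.5) at 12 weeks and 23.7% (19.0 to 28.9) at 28 weeks in spleen, near those of the highest cluster of each library.

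The S100 pair, whose proteins form the heterodimer calprotectin, was nearly even in all 3 libraries. S100a8 had 1027 of the pair's 2054 UMIs in cluster 3 of 12W spleen (47.8% to 52.2%) and took 47.6% (46.3 to 48.8) in 28W spleen cluster 8 and 49.0% (48.2 to 49.9) in kidney cluster 12. The 3 secondary granule genes were not in 1 ratio. Ltf took 12.5% (9.74 to 15.6) of Ngp, Camp and Ltf UMIs in 12W spleen cluster 3 and 15.6% (14.3 to 16.9) in 28W spleen cluster 8, but 5.94% (5.37 to 6.55) in kidney cluster 12. Camp moved the other way, with 42.2% (40.9 to 43.4) in kidney cluster 12 against 29.9% (28.4 to 31.6) in 28W spleen cluster 8. The weight of the S100 pair in the granule sum also differed, at 79.7% (78.1 to 81.3) in 12W spleen cluster 3, 64.5% (63.5 to 65.5) in 28W spleen cluster 8 and 66.5% (65.8 to 67.2) in kidney cluster 12.

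**Figure D3:**
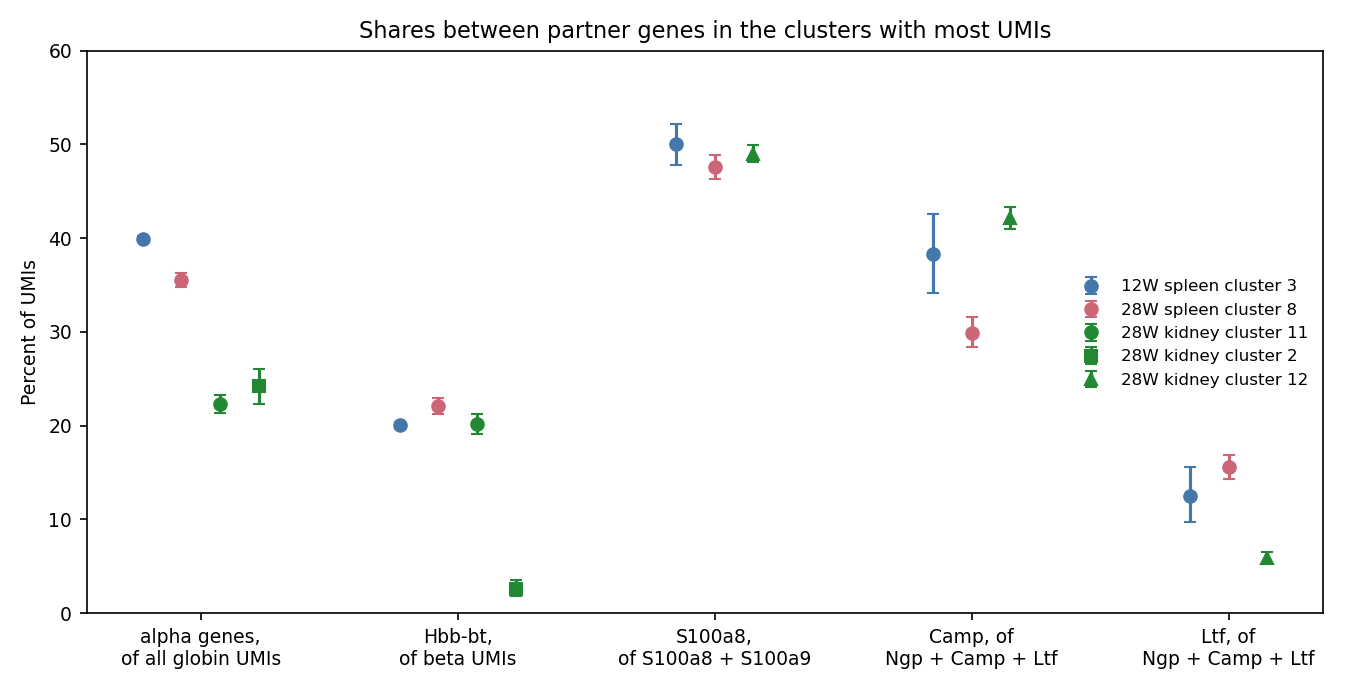
Share of UMIs taken by 1 partner gene or pair within its family (y axis, percent) in the clusters with most UMIs, with bars for the 95% exact binomial interval. Hbb-bt takes about the same share in 3 clusters but 2.61% in kidney cluster 2, the alpha share is lower in both kidney clusters, and the S100 pair is nearly even in each library.

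Alas2 followed the globins closely where UMIs were many. It had 5.10 UMIs per 1000 globin UMIs (4.63 to 5.61) in cluster 3 of 12W spleen, 5.14 (4.07 to 6.39) in cluster 8 of 28W spleen and 5.43 (3.88 to 7.40) in kidney cluster 11. In kidney cluster 2 the ratio was 0.964 (0.117 to 3.48), below the interval of cluster 11. The globin and granule families had no such fixed ratio, with 30.9 granule UMIs per 1000 globin UMIs in cluster 3 of 12W spleen and 584 in cluster 8 of 28W spleen.

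Other genes of the red cell lineage were read from lists. The 9 membrane and skeleton genes, among them Slc4a1 (the band 3 anion exchanger), all had UMIs in 12W spleen cluster 3, 28W spleen cluster 8 and kidney cluster 11. Their sums were 68.8, 252.9 and 37.4 CPM, against 0.954, 1.01 and 1.78 CPM in the other clusters of each library. Slc4a1 was at 30.2 CPM in cluster 3 of 12W spleen and 102 CPM in cluster 8 of 28W spleen, and at 7.33 CPM in kidney cluster 11. In kidney cluster 2, with 2075 globin UMIs, 8 of the 9 genes were at 0 UMIs and the list had 1 UMI in all, of Ank1 (an ankyrin). The erythroid transcription factor Klf1 had 17 UMIs in kidney cluster 11, 2 in 28W spleen cluster 8 and 1 each in 12W spleen cluster 3 and kidney cluster 2. As levels, the first 2 of these were 4.15 and 5.21 CPM, against 0.193 and 0.442 CPM in the other clusters of their libraries. In 12W spleen cluster 3 Klf1 was no higher than elsewhere beyond counting error, at 0.444 against 0.431 CPM. Nfe2, another listed erythroid regulator, was at 0.733 CPM in kidney cluster 11, 23.5 in 28W spleen cluster 8 and 5.77 in 12W spleen cluster 3. It was not particular to globin clusters, as kidney cluster 12 had it at 15.4 CPM against 0.242 in the other kidney clusters. In kidney cluster 2 it was at 0, and Zfpm1 held 93.9% of the regulator UMIs. The 11 late erythroid genes summed to 984 CPM in 12W spleen cluster 3 and 1290.5 CPM in 28W spleen cluster 8, against 469 and 480.4 CPM in the other clusters, but to 513 CPM in kidney cluster 11 against 505 CPM. The other enzymes and importers of haem synthesis are used by every cell. Their 10 genes summed to 277 CPM in 12W spleen cluster 3, 441 in 28W spleen cluster 8 and 385 in kidney cluster 11, against 199 in kidney cluster 2. The 441 and 385 CPM were the highest of their libraries. In 12W spleen, cluster 7 was above cluster 3, at 327 CPM, and all clusters other than cluster 3 were at 207 CPM together. The theta globin gene Hbq1b had 10, 6 and 5 UMIs in 12W spleen cluster 3, 28W spleen cluster 8 and kidney cluster 11, and 0 in kidney cluster 2.

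Further neutrophil genes separated the clusters in another way. Lcn2, which codes for the secondary granule protein lipocalin 2, was at 54.1 CPM in 12W spleen cluster 3, 2031 in 28W spleen cluster 8 and 840 in kidney cluster 12. Ly6g, a surface marker of mouse neutrophils, was at 4.88, 269 and 21.2 CPM, and the collagenase gene Mmp8 at 3.55, 115 and 2.89 CPM, in the same order. The 28W spleen cluster thus led for these 3 genes, but kidney cluster 12 led for others of the same lists. Hp was at 247 CPM in kidney cluster 12 and 120 in 28W spleen cluster 8, Pglyrp1 at 452 and 331, and Cybb at 363 and 75.6. Csf3r was at 19.3 and 2.61 CPM, and Fpr1 at 38.5 and 10.4 CPM, in that order. The 7 listed genes of secondary and tertiary granules other than the members summed to 130.5 CPM in 12W spleen cluster 3 and 2771 CPM in 28W spleen cluster 8, and 8 listed ones to 1961 CPM in kidney cluster 12. Mature neutrophil genes summed to 52.4, 488 and 169 CPM. The latter 2 were the highest of their libraries, but cluster 8 of 12W spleen was above cluster 3, at 59.7 CPM. Mxd1 made up 32.2% of the sum in that cluster 3, at 16.9 against 9.60 CPM in the other clusters. Of the primary granule genes, which precede the secondary ones in neutrophil development, Elane and Prtn3 had 55 and 59 UMIs in kidney cluster 12. In 12W spleen cluster 3 the 4 primary granule genes (Mpo, Elane, Prtn3 and Ctsg) had 1 UMI in all, and in the 28W spleen table only Prtn3 is listed, with 0 UMIs in cluster 8. Most primary granule UMIs of 12W spleen lay instead in cluster 10, at 77.7 CPM, where Ngp, Camp and Ltf were at 0. The granulocyte regulator Cebpe had 5, 18 and 18 UMIs in 12W spleen cluster 3, 28W spleen cluster 8 and kidney cluster 12.

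Markers of some other cells moved with the members in some of these clusters, and their part in the results was not tested. T cell genes summed to 4677 CPM in 12W spleen cluster 3 and 4523 in 28W spleen cluster 8, against 5548 and 5108 in the other clusters of those libraries, 0.843 and 0.886 times as much. Kidney cluster 11 was at 5897 CPM of them, while clusters 2 and 12 were at 2567 and 1447. The genes of the gate itself (Pdcd1, Cd44 and Cd8a) were at 365 CPM in 12W spleen cluster 3 against 679 CPM elsewhere, and at 495 against 572 CPM in 28W spleen cluster 8. Cd8a made up most of both differences, at 301 against 611 CPM in the 12W cluster, where Pdcd1 was at 35.5 against 36.6 and Cd44 at 28.4 against 31.6 CPM, and Pdcd1 was higher in the 28W cluster, at 52.1 against 34.5 CPM. Immunoglobulin genes took 2.45% of UMIs in 12W spleen cluster 3, 4.12% in 28W spleen cluster 8 and 14.9% in kidney cluster 2. The 5 B cell genes, headed by Cd79a, were at 370 CPM in 12W spleen cluster 3 against 39.6 in the other clusters. That was a log2 ratio of 3.19 after adding 1 CPM to both, against 0.18 in 28W spleen cluster 8 and -0.32 in kidney cluster 2. Kidney cluster 2 also had 10.8% of its UMIs on mitochondrial genes, and 432 CPM of kidney tubule genes against 154 in the other clusters, with Slc34a1 (a proximal tubule phosphate transporter) and Miox leading, though cluster 7 was higher still at 2923 CPM. The 10 macrophage and monocyte genes were at 11029 CPM in kidney cluster 12 against 1557 elsewhere, at 867 against 358 CPM in 12W spleen cluster 3, the highest of that library, and at 1408 against 940.3 CPM in 28W spleen cluster 8. Lyz2 (lysozyme) was at 117 CPM in the 12W cluster against 0.369 in the others, and C1qa at 65.7 against 3.29. Ly6c2 made up 58.1% of the list there, at 504 against 341 CPM. In 28W spleen cluster 8 Lyz2 was at 876 against 17.0 CPM and C1qa at 15.6 against 7.11. Ly6c2 was lower in that cluster, at 488 against 886 CPM, and Adgre1, Mertk and Ccr2 were at 0. Haem recycling genes, which macrophages use to take up and export iron from red cells, were higher in 12W spleen cluster 3, at 152 against 10.9 CPM in the other clusters, with Hmox1 (haem oxygenase 1) at 72.3, in kidney cluster 12, at 209.9 against 15.5 CPM, and less so in 28W spleen cluster 8, at 46.9 against 16.9 CPM. Platelet genes summed to 7.99 CPM in 12W spleen cluster 3, 39.1 in 28W spleen cluster 8 and 52.0 in kidney cluster 12, mostly from Pf4. Eosinophil, basophil and mast cell genes were at 0 in 28W spleen cluster 8 and at 89.6 CPM in kidney cluster 12, led by Cpa3.

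**Figure D4:**
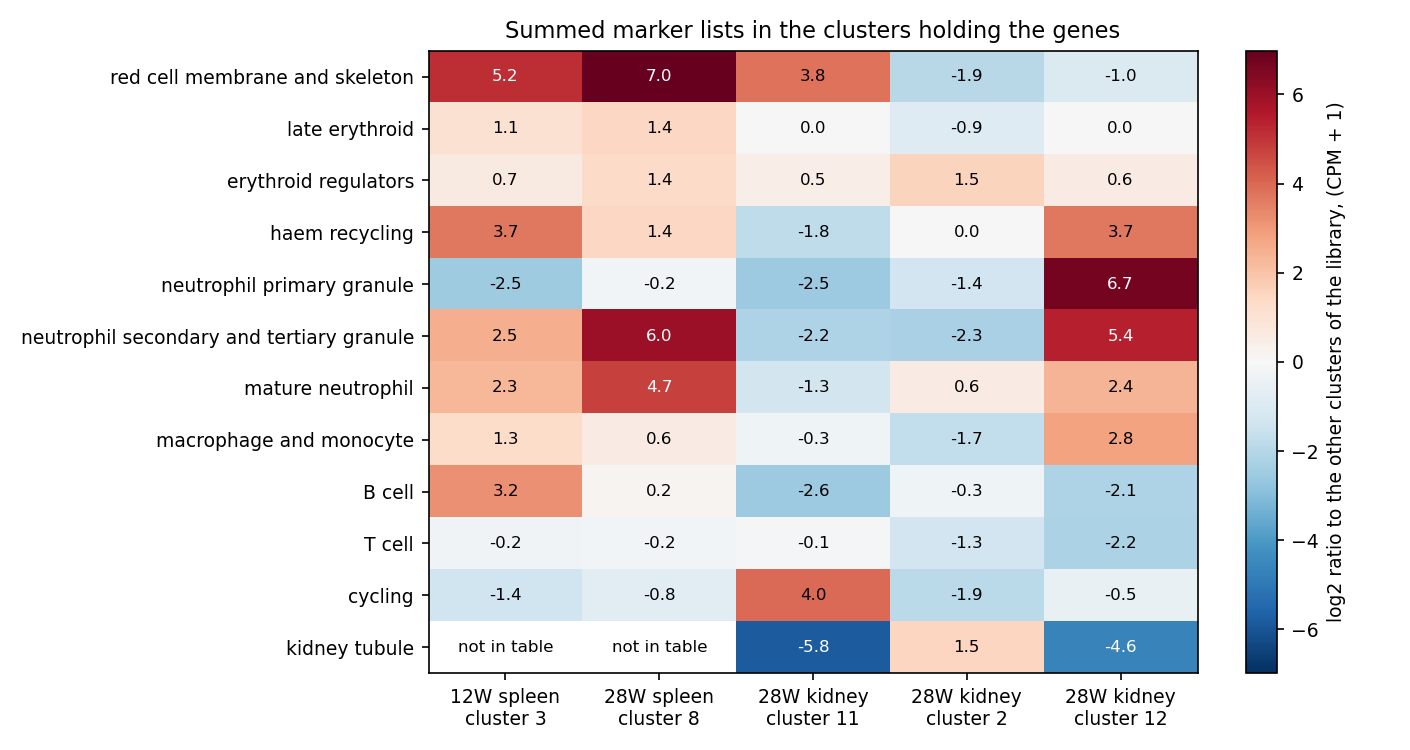
Summed level of 12 marker lists in the 5 clusters that hold the members, as the log2 ratio to the other clusters of the same library after adding 1 CPM to both (red higher, blue lower). Red cell membrane genes are higher in both spleen clusters and kidney cluster 11 but not in kidney cluster 2, and primary granule genes are higher in kidney cluster 12 only.

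By age, comparing 28W with 12W spleen asks how sorted cells of the same organ differ before and in advanced disease. Over whole libraries, the globin sum was 2409 CPM in 12W spleen and 501 CPM in 28W spleen, 4.81-fold lower (4.73 to 4.89). Hba-a1 was at 959 and 177 CPM, Hbb-bs at 1157 and 252, Hbb-bt at 289.5 and 71.5, Hba-a2 at 3.74 and 0.749, and Alas2 at 12.3 and 2.59. The granule sum went the other way, from 74.2 to 288 CPM, 3.88-fold higher (3.71 to 4.05). The secondary granule genes differed most, with Ltf 8.41-fold (6.49 to 11.1), Ngp 7.44-fold (6.53 to 8.52) and Camp 5.26-fold (4.51 to 6.16) higher in 28W spleen, against 2.999-fold (2.79 to 3.22) for S100a8 and 3.31-fold (3.09 to 3.56) for S100a9.

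On the scale of log2 ratios after adding 1 CPM, 4 of 9 members counted were lower by at least 1 in 28W spleen, where 0.953% of the 8919 genes that reached 5 CPM in one library or the other were. The 5 granule genes were higher by at least 1, where 1.85% of those genes were. Hba-a2 was under the 5 CPM minimum. The median log2 ratio was -2.10 over the 4 globin genes, with Hba-a2 included, and 2.21 over the 5 granule genes. Over all genes that reached the minimum it was -0.10.

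**Figure D5:**
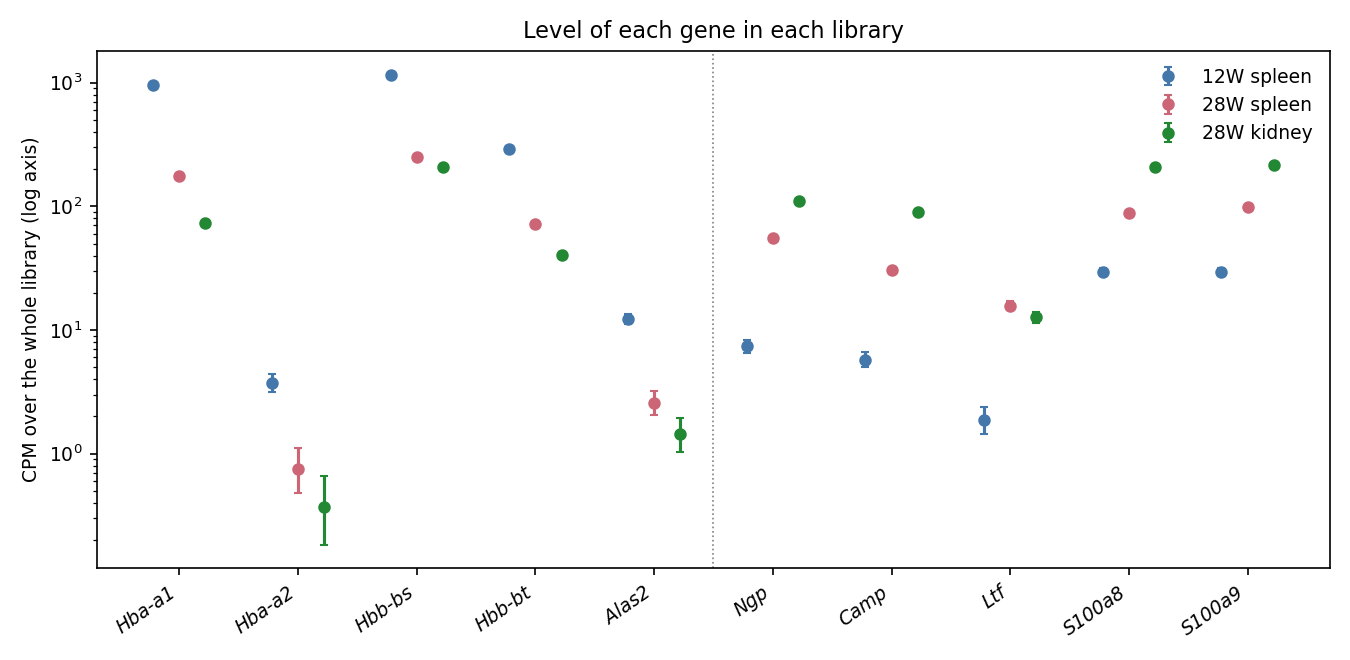
Level of each gene over the whole of each library (y axis, CPM, log axis), with bars for the 95% exact Poisson interval of counting. The haemoglobin genes and Alas2 fall in the order 12W spleen, 28W spleen, 28W kidney, and the granule genes run the opposite way except Ltf, which is higher in 28W spleen than in 28W kidney.

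Within the clusters that hold them, the globin genes differed per 1000000 UMIs of the cluster by 1.30-fold (1.24 to 1.36) at most, the value of Hbb-bt, which was higher in the 28W cluster. Per 1000000 UMIs of the cluster, the globin sum was 1.10-fold (1.08 to 1.12) higher in cluster 8 of 28W spleen than in cluster 3 of 12W spleen, while the cluster took 1.20% against 6.49% of library UMIs. Per cell the direction turned, with 41.4 globin UMIs in cluster 8 of 28W spleen and 78.5 in cluster 3 of 12W spleen, whose cells had 1020.1 and 2124 UMIs of all genes. Granule genes differed within the clusters, by 20.7-fold (19.8 to 21.7) for their sum, 45.5-fold (35.1 to 59.8) for Ltf and 15.95-fold (14.8 to 17.2) for S100a8, and their sum was higher per cell too, at 24.2 against 2.43 UMIs. These clusters were set side by side because they were the highest of their libraries, not because the authors matched them. Outside them, the globin sum was 11.8 CPM (10.7 to 13.1) at 12 weeks and 14.7 CPM (13.4 to 16.1) at 28 weeks, so the direction by age turned, to a log2 ratio of 0.30.

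By organ, 28W kidney was compared with 28W spleen. Organ and the collagenase and Percoll preparation of the kidneys cannot be told apart here. The globin sum was 321 CPM in kidney and 501 CPM in spleen, 1.56-fold lower (1.52 to 1.60). Hba-a1 was 2.44-fold lower (2.32 to 2.56), Hbb-bt 1.76-fold (1.64 to 1.89) and Hbb-bs 1.21-fold (1.17 to 1.25), so the 4 genes did not differ alike. For Hba-a2 the ratio of kidney to spleen was 0.490 (0.217 to 1.04), with 11 and 24 UMIs. The granule sum was 635 CPM in kidney and 288 CPM in spleen, 2.21-fold higher (2.15 to 2.26). Camp was 2.96-fold (2.75 to 3.19), S100a8 2.33-fold (2.23 to 2.44), S100a9 2.20-fold (2.11 to 2.29) and Ngp 2.003-fold (1.89 to 2.12) higher, while Ltf was 1.25-fold (1.09 to 1.43) lower.

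As log2 ratios by organ, 3 of 8 members counted (Camp, S100a8 and S100a9) were higher by at least 1, against 6.41% of 9274 genes, and Hba-a1 alone was lower by as much, against 1.43%. Hba-a2 and Alas2 were under 5 CPM in both libraries. The medians were -0.58 for the globin genes, with Hba-a2 included, and 1.13 for the granule genes. Over all genes that reached the minimum the median was 0.08. Within the clusters that hold them, the granule sum was lower in kidney. It was 18216 CPM in cluster 12 and 23708 CPM in cluster 8 of 28W spleen, 1.30-fold lower (1.27 to 1.33), with Ltf 3.62-fold lower (3.16 to 4.15) and Camp at a ratio of 1.02 (0.947 to 1.10). Cluster 12 took 3.47% of library UMIs against 1.20% for cluster 8, and its cells had 103 granule UMIs each on average against 24.2. With each cluster weighted by its cells, as in the deposited means, the granule log2 ratio by organ turned to -1.55, and without clusters 12 and 8 it was -0.27. The globin log2 ratio by organ, -0.64, was -2.80 under the deposited means weighted by cells, and turned to 4.05 without cluster 8 of 28W spleen and cluster 2 of 28W kidney, the highest of each.

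A low level of the haemoglobin genes ran through most clusters. Outside the 5 clusters named, the globin sum lay at 6.64 to 38.6 CPM for clusters of 12W spleen, 0.736 to 50.6 CPM for those of 28W spleen, and 0.805 to 60.7 CPM for those of 28W kidney. Hbb-bs had more than 3 UMIs in 25 of the 33 clusters and Hba-a1 in 23, but Hba-a2 in 3. Granule genes were sparser. The 9 other clusters of 12W spleen held 3 granule UMIs in all, on 32488929 UMIs, and Ngp, Camp and Ltf were at 0 in each, which allows up to 0.0923 CPM for each gene. In 28W spleen a second level of S100a8 and S100a9 appeared in clusters 10 and 11, with 44.8 and 39.7 CPM of S100a8 and 39.0 and 57.8 CPM of S100a9. Ngp, Camp and Ltf had 1 UMI between them in these 2 clusters. Cluster 10 also led 28W spleen for macrophage genes, at 2100.4 CPM, haem recycling genes, at 474 CPM, and B cell genes, at 2631 CPM. In 28W kidney, cluster 1 had the most granule UMIs after cluster 12, at 11.4 CPM, with 20 UMIs each of S100a8 and S100a9.

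Over the 33 clusters, log2(CPM + 1) of Hba-a1 and Hbb-bs correlated at r = 0.97 and that of S100a8 and S100a9 at r = 0.99, as a description of clusters that share libraries and depth. Hbb-bs and Ngp correlated at r = 0.97 over the 10 clusters of 12W spleen, 0.91 over the 11 of 28W spleen and -0.23 over the 12 of 28W kidney. These values rest on the 1 to 3 clusters with high levels. Among 12286 genes with at least 50 UMIs, those most like Hbb-bs included Trim10 (r = 0.86), Cldn13 (0.86), Tmcc2 (0.80), Slc4a1 (0.80), Ighv6-3 (0.79) and Trim58 (0.75). For Alas2 they included Trim10 (0.98), Tmcc2, Cldn13, Igkv1-132, Trim58 and Ighv6-3 (0.86). Of the 8 genes most like Hbb-bs, 7 had 171 UMIs or fewer over the 3 libraries. Closest to Ngp were Wfdc21 and Lcn2 (both 0.98), Lrg1 (0.96), Cd177, Ly6g, Mmp8, Anxa1 and Hp (0.87), and closest to S100a9 were Lcn2 (0.93), Anxa1, Wfdc21, Hp, Cd177, Ifitm6, Fpr1 and I830077J02Rik (0.88).

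Because members of a family moved together, the 120 bases before the RefSeq start of each gene (GRCm38.p6) were searched on both strands for 5 motifs. These were GATAA (in 10.5% of 32851 promoters of that length), CACCC (31.7%), CCAAT (21.3%), TATAA (11.8%) and GAGGAA (11.6%). No 2 matches overlapped. All 4 globin promoters held CACCC, and each also held CCAAT, as well as TATAA. The 120 bases of Hba-a1 and Hba-a2 were identical when shifted by 3 bases. Alas2 had 1 GATAA and 3 CACCC matches. Among the granule genes, S100a8 held TATAA and GAGGAA, S100a9 and Ltf held GATAA and CACCC, Ngp and Ltf held CCAAT, and Camp held 2 CACCC matches, so no pattern ran through the 5. The parts outside annotated exons are shown for 4 members, 1 for each kind of gene, with matches in capitals: Hba-a2 at chr11:32296372-32296488, Alas2 at chrX:150547297-150547374, Ngp at chr9:110419688-110419746, and S100a9 on the minus strand at chr3:90695722-90695841. The first 3 are on the plus strand.
Hba-a2: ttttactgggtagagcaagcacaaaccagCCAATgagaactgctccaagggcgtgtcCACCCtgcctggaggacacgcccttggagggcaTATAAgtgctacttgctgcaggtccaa
Alas2: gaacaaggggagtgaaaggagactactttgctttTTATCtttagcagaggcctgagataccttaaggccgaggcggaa
Ngp: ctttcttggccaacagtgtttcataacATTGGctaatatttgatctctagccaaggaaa
S100a9: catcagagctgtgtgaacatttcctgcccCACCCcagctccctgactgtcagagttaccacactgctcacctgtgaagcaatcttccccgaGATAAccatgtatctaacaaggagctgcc
A match is a run of letters and was not tested as a binding site. TTATC and ATTGG are GATAA and CCAAT read on the other strand. Ngp, Camp and Ltf all lie on chromosome 9, and S100a8 and S100a9 lie near each other on chromosome 3, at chr3:90668978-90670035 on the plus and chr3:90692632-90695721 on the minus strand.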

How the data were processed

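Single-cell 5′ libraries of PD-1+CD44+CD8+ T cells were compared as 3 groups, each of 4 pooled sample entries that may be sequencing lanes of 1 library. The authors deposited, per library, the cluster of each barcode and a table of mean counts per gene and cluster (a score without a fixed unit: mean UMIs scaled so that each column sums to the library's median UMIs per cell). Per the submitters' processing notes, Cell Ranger 2.1.1, R 3.6.1 and GRCm38 were used, and the study's methods name the Cell Ranger vdj pipeline. Cell filters and the treatment of doublets are not given in the sources used here, and no doublet caller could be run on cluster means, so clusters may hold doublets. Deposited columns of log2 fold changes and adjusted p-values hold the authors' own comparisons and were not used. Dividing each column by its smallest value gave whole UMIs (100% of values within 0.001), tested on simulated data. No count test was possible with 1 library per group.

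UMIs were summed per cluster and library as CPM. Log2 ratios added a pseudocount of 1 CPM. Intervals are 95% exact Poisson, binomial or conditional binomial, computed with Python 3.11.15 and scipy 1.17.1, and cover counting error only. A count of 0 allows 3 counts. The genes named were the 10 members, for 4 of them the 8 most correlated others, and from 21 marker lists those at 0 or with at least 10% of a list's UMIs in a cluster. The members and lists were chosen with earlier results of these data known. Gene models came from GENCODE M21 (GRCm38). Some genes of these lists are not reported here by name. Alternatives covered the pseudocount, the scaling and leaving out clusters.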

Additional observations from a re-analysis of the deposited data

How the results depend on the processing

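No paired analysis was possible because each table pools the 4 sample entries of a group, which may be sequencing lanes of 1 library, and for the same reason none could be left out. Counted over 12 results each (10 genes and 2 sums), the log2 ratios by age kept their direction under the other pseudocounts, scalings and weights, and those by organ did so under all of these except the deposited means weighted by cells, where 7 of 12 did. A minimum of 20 UMIs removed no gene. Median ratio scaling gave -2.17 and 2.04 for the globin and granule sums by age and -0.73 and 1.05 by organ. Totals that left out receptor segments, mitochondrial genes and ribosomal proteins gave -2.23 for globins by age and -0.82 and 0.96 by organ, UMIs per cell gave -2.29 for globins by age and -0.88 and 0.91 by organ, and a pseudocount of 10 CPM gave 1.82 for granule genes by age. Deposited means weighted by cells, which give clusters with few UMIs per cell more weight, gave -1.26 and 2.97 by age and -2.80 and -1.55 by organ, with Camp at -1.12, S100a8 at -1.46 and S100a9 at -1.54.

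Without clusters 3 and 8 of the spleens, highest for both families, the ratio by age was 0.30 for the globin sum, 0.0032 for Hba-a1, 0.33 for Hbb-bs, 0.66 for Hbb-bt and 0.0033 for Alas2, and 2.18 for the granule sum. By organ, without the highest globin cluster of each library the globin sum was at 4.05, Hba-a1 at 3.24 and the granule sum at 7.05, because kidney clusters 11 and 12 stayed in. Without the highest granule clusters the globin sum was at 4.41, Hba-a1 at 3.61, the granule sum at -0.27, S100a8 at -0.61 and S100a9 at -0.48. Without all 5 clusters over 1000 CPM, a choice made after seeing the data, the values by organ were -0.94 for globins, -0.20 for the granule sum, -0.51 for S100a8 and -0.49 for S100a9. Spearman's rank correlation over the 33 clusters was lower for all 5 pairs tried, such as 0.03 against 0.47 for Hbb-bs and Ngp. Counting genes with at least 50 CPM moved each background share by less than 1.5 times.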
